A study of Mus musculus with 4 samples.

Results

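Insulin-like growth factor 1, its receptor and its binding proteins were followed through a single-cell RNA sequencing study of mouse fetuses. The set was chosen by name and holds 8 of the 31053 genes in the count matrix: Igf1, Igf1r, Igfbp2, Igfbp3, Igfbp4, Igfbp5, Igfbp6 and Igfbp7. All 8 were detected at both ages. Each of 4 libraries held cells of Cyp27a1-/- fetuses, which lack sterol 27-hydroxylase, the mitochondrial enzyme that turns cholesterol into 27-hydroxycholesterol. At embryonic day E14.5 and again at E18.5, 1 library came from fetuses carried by a Cyp27a1-/- mother (null-mother library) and 1 from fetuses carried by a Cyp27a1+/- mother (het-mother library), so the comparison asks what the mother's own enzyme changes in fetuses that all lack it. Strain, litter and the number of fetuses in a library are not given in the sources used here, and all 4 libraries are labelled as lung, digested with collagenase and dispase and treated to lyse red cells.

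The libraries held 4843 cells at E14.5 from the null mother, 4957 at E14.5 from the het mother, 16517 at E18.5 from the null mother and 17034 at E18.5 from the het mother, with 47005276 to 118054232 unique molecular identifiers (UMIs, each standing for 1 captured transcript) and a median of 3697 to 6387 UMIs a cell. The contents of the E18.5 libraries went against their label. Nkx2-1, the transcription factor that defines lung epithelium, had 2804 UMIs in the E14.5 null-mother library and 1935 in the E14.5 het-mother library, but 1 UMI in the null-mother and 4 in the het-mother library at E18.5, where the liver gene Alb stood at 8344 CPM (counts-per-million, UMIs of a gene scaled to a common total) in the null-mother and 2905 CPM in the het-mother library. The cells at E18.5 were those of liver and blood, so the E14.5 values concern lung and the E18.5 values concern liver and blood, and the ages are not compared. The E18.5 het-mother library also carries a wild-type tag in its name although its genotype label reads Cyp27a1-/-, and of its cells that could be sexed by RNA 5395 were male and 22 female, against 3875 male and 4411 female in the E18.5 null-mother library. Cyp27a1 RNA was present in every library, at 19.7 CPM in the null-mother and 18.7 CPM in the het-mother library at E14.5 and at 37.3 CPM in the null-mother and 38.5 CPM in the het-mother library at E18.5. Whether those UMIs lie outside the deleted part is not given in the sources used here. Pairs of libraries shared 93 to 164 cell barcodes.

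Cells were sorted into types by counting distinct marker genes, none of which belongs to the set. A type was compared where both libraries held at least 50 of its cells, which left 6 types at E14.5 (epithelium, fibroblast mesenchyme, smooth muscle, endothelium, macrophage, erythroid) and 10 at E18.5 (hepatocyte, mesenchyme, endothelium, macrophage, monocyte, neutrophil, B lineage, megakaryocyte, T and NK, erythroid). UMIs were summed over the cells of a type in a library, and levels are CPM of that sum. With 1 library in each group there is no replicate check and no test was made: the 95% intervals given with ratios cover counting error only, and a real difference between mothers cannot be told apart from a difference between 2 preparations. A ratio of null-mother over het-mother library was counted as past the threshold when it exceeded 1.5-fold either way after 10 CPM were added to both levels, for genes that had 50 UMIs or more in whichever library was higher. Counts come from transcript ends with no length correction, so levels are compared between cells and never between genes. Types are said to overlap in level where the ranges of their library values do.

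IGF1 is a secreted growth factor that acts close to the cells that make it as well as through the circulation, and it signals through the IGF1 receptor, a tyrosine kinase at the cell surface that also answers to IGF2. The IGF binding proteins are secreted carriers that hold the ligands away from the receptor, prolong their life or, after cleavage by proteases such as PAPP-A, release them. IGFBP7 is a relative with weak affinity for IGFs, found in the matrix of blood vessels. In the fetus these proteins are known as regulators of growth, and the liver is a main source of several of them.

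In mm10 coordinates (GENCODE annotation) Igfbp2 lies at chr1:72824503-72852474 on the plus strand and Igfbp5 next to it at chr1:72857932-72874884 on the minus strand, with 5457 bases between their 3′ ends. Igfbp3 (chr11:7206086-7213923, minus strand) has the same kind of neighbour in Igfbp1, 3539 bases away. Igf1 lies at chr10:87858265-87937042 (plus), Igf1r at chr7:67952827-68233668 (plus), Igfbp4 at chr11:99041244-99054392 (plus), Igfbp6 at chr15:102144362-102149511 (plus) and Igfbp7 at chr5:77349240-77408041 (minus). No exon of the 8 genes overlaps an exon of another gene on the same strand.

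In the null-mother library Igfbp2 stood lower in fetal hepatocytes and Igfbp7 stood higher in lung epithelium and endothelium, and the 250 bases before their start sites are shown for that reason, 5′ to 3′ on the gene's strand, from RefSeq's GRCm38.p6 (chr1:72824230-72824479, plus, the first of 2 annotated Igfbp2 starts, and chr5:77408046-77408295, minus). Capitals mark GGGCGG or, read on the other strand, CCGCCC.
Igfbp2: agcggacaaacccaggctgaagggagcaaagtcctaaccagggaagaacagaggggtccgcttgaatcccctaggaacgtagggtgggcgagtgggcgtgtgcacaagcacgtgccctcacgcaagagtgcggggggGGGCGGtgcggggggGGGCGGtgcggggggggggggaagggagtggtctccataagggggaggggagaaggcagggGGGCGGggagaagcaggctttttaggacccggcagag
Igfbp7: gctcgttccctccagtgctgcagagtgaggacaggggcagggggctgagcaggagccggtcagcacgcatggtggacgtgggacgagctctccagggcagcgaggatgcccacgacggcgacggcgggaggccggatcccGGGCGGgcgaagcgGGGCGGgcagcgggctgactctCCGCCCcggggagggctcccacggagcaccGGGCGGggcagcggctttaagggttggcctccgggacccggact
Igfbp2 held 3 copies and Igfbp7 held 4, with 14 CG pairs in the Igfbp2 window and 26 in the Igfbp7 window. Of all 32851 promoters of that length 32.74% hold at least 1 GGGCGG on either strand. Igf1r held 2 copies, and the windows of the other 5 genes, like that of the second Igfbp2 start, held none. TATAAA, searched on both strands and held by 12.37% of promoters, was present in the windows of Igfbp4 and Igfbp6. CCAAT, likewise on both strands and held by 33.85%, was present in those of Igf1 and Igfbp6. These are matches of letters and say nothing of which factors bind.

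Each gene had its own place. At E14.5 the ligand Igf1 had its highest level in smooth muscle, with 1289 CPM in the null-mother library and 1281 CPM in the het-mother library (null-mother 2218 UMIs, het-mother 1914 UMIs). Macrophages followed (null-mother 203 CPM, het-mother 230 CPM), then fibroblasts (null-mother 99.7 CPM, het-mother 79.4 CPM) and endothelium (null-mother 14.6 CPM, het-mother 24.4 CPM). Epithelium (null-mother 2.05 CPM, het-mother 1.99 CPM) was at the level of erythroid cells (null-mother 0 UMIs, het-mother 4 UMIs), which are taken here as the background of free RNA. Smooth muscle gave 33.4% of the null-mother library's Igf1 UMIs and 34.9% of the het-mother library's, from 3.23% of all null-mother UMIs and 3.18% of all het-mother UMIs. Fibroblasts gave 28.7% of the null-mother and 32.7% of the het-mother library's Igf1 UMIs, from 35.9% of all null-mother and 48.0% of all het-mother UMIs. After every cell was thinned to 2000 UMIs, Igf1 was detected in 84.2% of smooth muscle cells in the null-mother library and 86.4% in the het-mother library, with no erythroid cell positive (0 of 111 in the null-mother and 0 of 65 in the het-mother library). Without thinning, the smooth muscle shares were 86.3% in the null-mother library, at a median depth of 11596 UMIs, and 85.1% in the het-mother library, at 4776 UMIs.

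**Figure D1:**
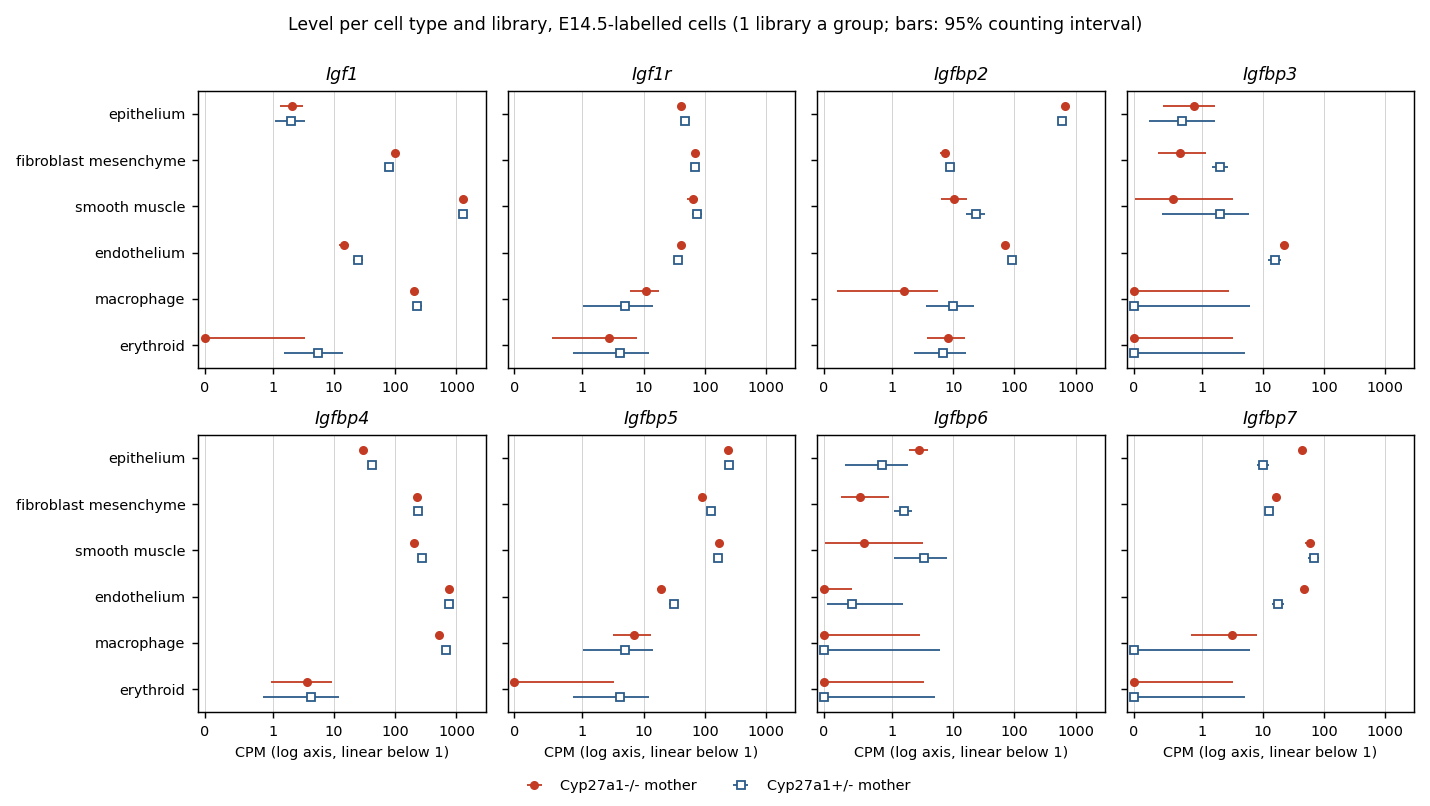
Level of each of the 8 genes in the 6 cell types compared at E14.5, in CPM of the type (log axis), with the Cyp27a1-/- (null) mother's library as filled points above the Cyp27a1+/- (het) mother's as open points and lines for the exact 95% Poisson interval. Igf1 peaks in smooth muscle (null-mother 1289 CPM, het-mother 1281 CPM), Igfbp2 and Igfbp5 in epithelium, and Igfbp3 and Igfbp4 in endothelium.

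At E18.5 Igf1 was led by macrophages, with 483 CPM in the null-mother and 528 CPM in the het-mother library (ratio 0.915, 95% interval 0.82 to 1.02). They gave 49.7% of the null-mother library's Igf1 UMIs and 63.8% of the het-mother library's, from 1.56% of all null-mother UMIs and 1.02% of all het-mother UMIs. Mesenchyme (null-mother 53.9 CPM, het-mother 199 CPM) and endothelium (null-mother 41.4 CPM, het-mother 35.0 CPM) came next. At 2000 UMIs a cell Igf1 was detected in 61.8% of macrophages in the null-mother library and 63.0% in the het-mother library, against 0.670% of null-mother and 0.106% of het-mother erythroid cells. The unthinned macrophage shares were 72.4% in the null-mother library, at a median depth of 4135 UMIs, and 59.5% in the het-mother library, at 1939 UMIs, a gap that was not seen after thinning. Hepatocytes (null-mother 4.56 CPM, het-mother 2.33 CPM) overlapped in level with erythroid cells (null-mother 5.12 CPM, het-mother 0.50 CPM). Among cells without a macrophage marker, hepatocytes had 3.98 CPM in the null-mother and 2.13 CPM in the het-mother library. Erythroid cells without one were lower (null-mother 0.272 CPM, het-mother 0.342 CPM). Megakaryocytes and T and NK cells had no Igf1 UMI.

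The receptor gene Igf1r was spread more evenly. At E14.5 it had 63.4 CPM in null-mother and 75.6 CPM in het-mother smooth muscle, and it overlapped in level with fibroblasts (null-mother 70.0 CPM, het-mother 68.7 CPM). Epithelium (null-mother 40.5 CPM, het-mother 48.1 CPM) and endothelium (null-mother 41.2 CPM, het-mother 35.9 CPM) followed and overlapped each other, above macrophages (null-mother 10.8 CPM, het-mother 4.96 CPM). At E18.5 the order was mesenchyme (null-mother 111 CPM, het-mother 134 CPM), endothelium (null-mother 87.3 CPM, het-mother 80.1 CPM), neutrophils (null-mother 65.4 CPM, het-mother 77.8 CPM), megakaryocytes (null-mother 51.4 CPM, het-mother 54.0 CPM), B lineage (null-mother 28.3 CPM, het-mother 29.7 CPM) and erythroid cells (null-mother 18.8 CPM, het-mother 17.3 CPM), with hepatocytes lower (null-mother 6.59 CPM, het-mother 10.4 CPM). None of these types down to the erythroid cells overlapped the next. Neutrophils, being so numerous, gave 47.2% of the null-mother and 48.0% of the het-mother library's Igf1r UMIs. No Igf1r ratio passed 1.5-fold, and the measured ones lay between 0.635 in hepatocytes and 1.15 in E14.5 endothelium. The hepatocyte one turned round when hepatocytes were taken from clusters (null-mother 6.28 CPM, het-mother 3.73 CPM).

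The binding proteins divided the lung between them. Igfbp2, a carrier of both ligands that is abundant in fetal epithelia and liver, was at 660 CPM in null-mother and 600 CPM in het-mother epithelium at E14.5, where that type gave 83.0% of the null-mother and 64.3% of the het-mother library's Igfbp2 UMIs. Endothelium was next with 70.5 CPM in the null-mother and 92.9 CPM in the het-mother library. Igfbp5, a carrier that binds extracellular matrix, was also led by epithelium (null-mother 242 CPM, het-mother 252 CPM), followed by smooth muscle (null-mother 171 CPM, het-mother 166 CPM) and fibroblasts (null-mother 90.1 CPM, het-mother 127 CPM). Igfbp4, the carrier cleaved by PAPP-A, was led by endothelium (null-mother 764 CPM, het-mother 753 CPM) and macrophages (null-mother 523 CPM, het-mother 684 CPM). Smooth muscle (null-mother 205 CPM, het-mother 278 CPM) and fibroblasts (null-mother 229 CPM, het-mother 239 CPM) overlapped, and epithelium was low at 29.2 CPM in the null-mother and 41.6 CPM in the het-mother library. Igfbp3, which in the adult carries most of the IGF in serum, was sparse. Endothelium had 21.8 CPM of it in the null-mother and 15.7 CPM in the het-mother library, with 50% of its UMIs in 2 null-mother and 6 het-mother cells. Every other compared type was under 2.01 CPM, and macrophages and erythroid cells had no UMI. Igfbp7 was highest in smooth muscle at 59.9 CPM in the null-mother and 67.6 CPM in the het-mother library.

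At E18.5 hepatocytes were the Igfbp2 cells: they held 90.5% of the null-mother and 91.8% of the het-mother library's Igfbp2 UMIs. Endothelium had most Igfbp4 (1469 CPM in the null-mother and 1134 CPM in the het-mother library) and most Igfbp7 (null-mother 865 CPM, het-mother 739 CPM), and gave 65.0% of the null-mother and 60.7% of the het-mother library's Igfbp7 UMIs. Its share of all UMIs was 1.88% in the null-mother and 1.84% in the het-mother library. Mesenchyme was next for Igfbp7 (null-mother 653 CPM, het-mother 548 CPM) and Igfbp4 (null-mother 485 CPM, het-mother 421 CPM), and first for Igfbp3 (null-mother 168 CPM, het-mother 132 CPM), Igfbp5 (null-mother 117 CPM, het-mother 238 CPM) and Igfbp6 (null-mother 210 CPM, het-mother 124 CPM). Igfbp6 prefers IGF2 over IGF1. After mesenchyme, Igfbp3, Igfbp5 and Igfbp6 dropped to under 20.6 CPM in every other compared type. Some cells of the mesenchyme rule also held a marker of mesothelium, the sheet of cells that covers the liver. Without those cells Igfbp5 was at 19.2 CPM (3 UMIs) in null-mother and 93.0 CPM (23 UMIs) in het-mother mesenchyme. Igfbp6 was at 44.8 CPM (7 UMIs) in null-mother and 72.8 CPM (18 UMIs) in het-mother mesenchyme. Among cells thinned to 2000 UMIs, at least 2 of the 6 binding protein genes were detected in 76.2% of endothelial cells in the null-mother and 69.7% in the het-mother library, and in 66.7% of null-mother and 62.9% of het-mother mesenchymal cells. Hepatocytes (null-mother 4.82%, het-mother 14.9%) and erythroid cells (null-mother 0%, het-mother 0.0426%) had fewer. In the lung, epithelium was the type with most such cells, at 31.2% in the null-mother and 30.1% in the het-mother library.

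**Figure D2:**
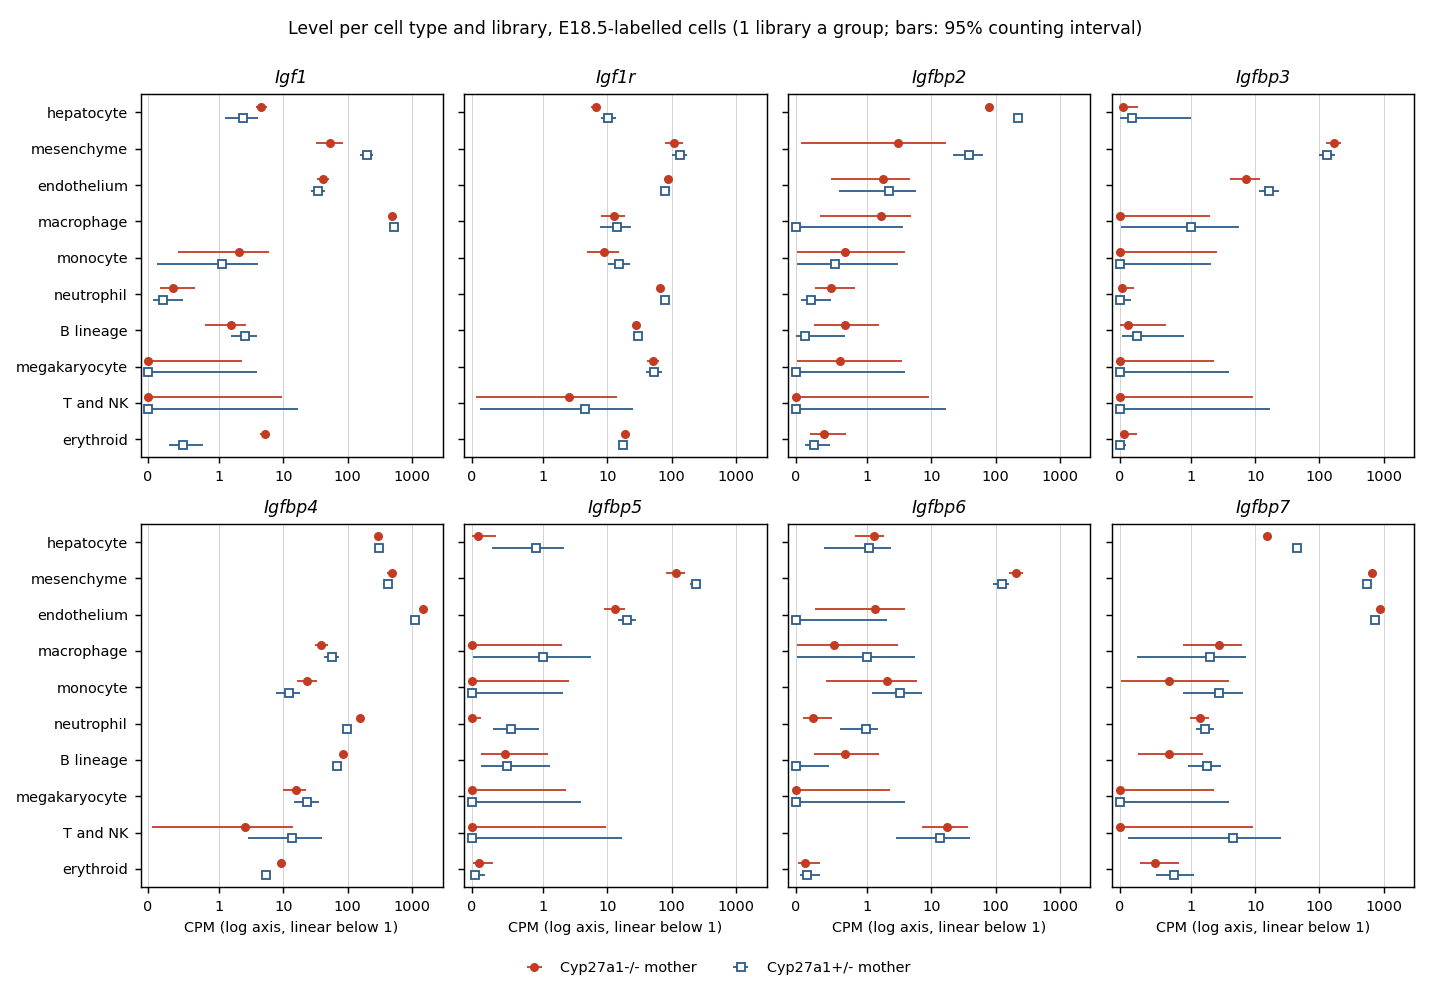
Level of each of the 8 genes in the 10 cell types compared at E18.5, in CPM of the type (log axis), the Cyp27a1-/- (null) mother's library as filled points above the Cyp27a1+/- (het) mother's as open points, lines giving the exact 95% Poisson interval. Macrophages lead for Igf1, hepatocytes for Igfbp2, and endothelium for Igfbp4 and Igfbp7. Cells of the mesenchyme marker rule, some of them with mesothelium markers, lead for Igf1r, Igfbp3, Igfbp5 and Igfbp6.

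Set between the 2 mothers, most ratios were small. At E14.5, 25 of the 48 combinations of gene and type had enough UMIs to measure, of which 2 were past 1.5-fold upwards in the null-mother library and 0 downwards. In the types with a measured gene of the set, 0.441% to 6.29% of all measured genes passed upwards and 0.135% to 2.59% downwards. At E18.5, 26 of 80 were measured, with 2 past the threshold upwards and 4 downwards. There the shares of all genes ran from 0.408% to 7.4% upwards and from 0.28% to 6.21% downwards. Mesenchyme, with the highest of these shares, held 1 of the upward and 2 of the downward ones. The 2 at E14.5 were both Igfbp7. In the E14.5 types the median log2 ratio of the measured genes of the set ran from -0.28 in macrophages to 0.02 in endothelium, where the medians of all measured genes were 0.07 in macrophages and 0.03 in endothelium.

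Igfbp7 had 43.0 CPM in epithelium of the null-mother library and 10.2 CPM in epithelium of the het-mother library (null-mother 482 UMIs, het-mother 72 UMIs). The ratio was 4.21 (95% interval 3.28 to 5.47), or 1.39 on the log2 scale with 10 CPM added. It was 1 of 5 genes of the set measured in epithelium and the only one past the threshold, while 1.14% of all genes measured there were past it upwards and 0.135% downwards. The UMIs were not those of a few cells: 215 of 510 null-mother cells and 59 of 340 het-mother cells had at least 1, and no null-mother cell had more than 11 and no het-mother cell more than 4. At 2000 UMIs a cell 9.16% of null-mother and 2.51% of het-mother epithelial cells were positive. Before thinning the shares were 42.2% in the null-mother library, at a median depth of 21944 UMIs, and 17.4% in the het-mother library, at 22225.5 UMIs, and no erythroid cell of either library had an Igfbp7 UMI. In these epithelial cells the 9 markers of endothelium summed to 45.7 CPM in the null-mother and 44.6 CPM in the het-mother library, and the 7 of smooth muscle summed to 12.1 CPM in the null-mother and 14.6 CPM in the het-mother library, with all of them detected in both. The 10 markers of fibroblast mesenchyme summed to 30.2 CPM in the null-mother library, with all detected, and to 15.8 CPM in the het-mother library, with Fgf10 at 0. In epithelial cells without a UMI of those markers (null-mother 341 cells, het-mother 262 cells) Igfbp7 was at 45.6 CPM in the null-mother and 9.90 CPM in the het-mother library. The other 4 genes measured in epithelium (Igf1r, Igfbp2, Igfbp4 and Igfbp5) had ratios of 0.701 to 1.10.

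In endothelium Igfbp7 had 47.5 CPM in the null-mother library and 17.8 CPM in the het-mother library (null-mother 433 UMIs, het-mother 86 UMIs), a ratio of 2.67 (2.12 to 3.41). It was the only one of 7 genes measured there to pass, where 0.558% of all measured genes were past the threshold upwards and 0.467% downwards. Here the UMIs were uneven: 85 of 561 null-mother cells and 37 of 351 het-mother cells had any. When each cell was given the same weight in place of each UMI, the log2 ratio was 0.55 and no longer past the threshold. Endothelial cells with signs of division (at least 2 of 5 proliferation genes detected) had 32.0 CPM in the null-mother and 15.2 CPM in the het-mother library, below the others (null-mother 170 CPM, het-mother 35.5 CPM). In the lung's other 2 Igfbp7 types the libraries lay close together, with ratios of 1.30 in fibroblasts (1.10 to 1.53) and 0.886 in smooth muscle (0.667 to 1.18).

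No gene passed in fibroblasts (6 measured, against 0.441% of all genes upwards and 0.162% downwards), smooth muscle (5 measured, 1.61% upwards and 2.39% downwards) or macrophages (2 measured, 6.29% upwards and 2.59% downwards). Smaller shifts outside counting error were seen in several types. In fibroblasts Igfbp5 had 90.1 CPM in the null-mother and 127 CPM in the het-mother library (ratio 0.709, 0.668 to 0.753). Of the fibroblasts, 37 of 1300 null-mother and 59 of 1449 het-mother cells held 50% of those UMIs. Igf1 had 99.7 CPM in null-mother and 79.4 CPM in het-mother fibroblasts (ratio 1.25, 1.18 to 1.34). That Igf1 shift was all but absent when fibroblasts were taken from clusters (null-mother 80.0 CPM, het-mother 77.0 CPM, log2 ratio 0.05). In smooth muscle, the type with the highest Igf1 level, the Igf1 ratio was 1.01 (0.946 to 1.07). In endothelium the ratio was 0.599 (0.464 to 0.774) for Igf1 and 0.612 (0.489 to 0.766) for Igfbp5. There 50% of the Igf1 UMIs lay in 16 null-mother and 8 het-mother cells. For Igfbp5 it was 3 null-mother and 3 het-mother cells. By sex as read from RNA, the Igf1 ratio was 0.388 (0.246 to 0.606) in male and 0.887 (0.602 to 1.33) in female endothelial cells. Without the endothelial cells that held a fibroblast marker Igfbp5 turned round, to 19.9 CPM (63 UMIs) in the null-mother and 7.18 CPM (14 UMIs) in the het-mother library, and so did Igfbp3 (null-mother 8.55 CPM, het-mother 10.3 CPM). Igfbp4 had ratios of 0.701 in epithelium (0.597 to 0.824), 0.739 in smooth muscle (0.639 to 0.853) and 0.764 in macrophages (0.675 to 0.866). The macrophage one turned round when each cell was given the same weight (log2 ratio 0.08). Of the macrophages, 13 of 78 null-mother and 7 of 52 het-mother cells held 50% of the Igfbp4 UMIs. Their median depth was 15543 UMIs in the null-mother and 2925 UMIs in the het-mother library.

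**Figure D3:**
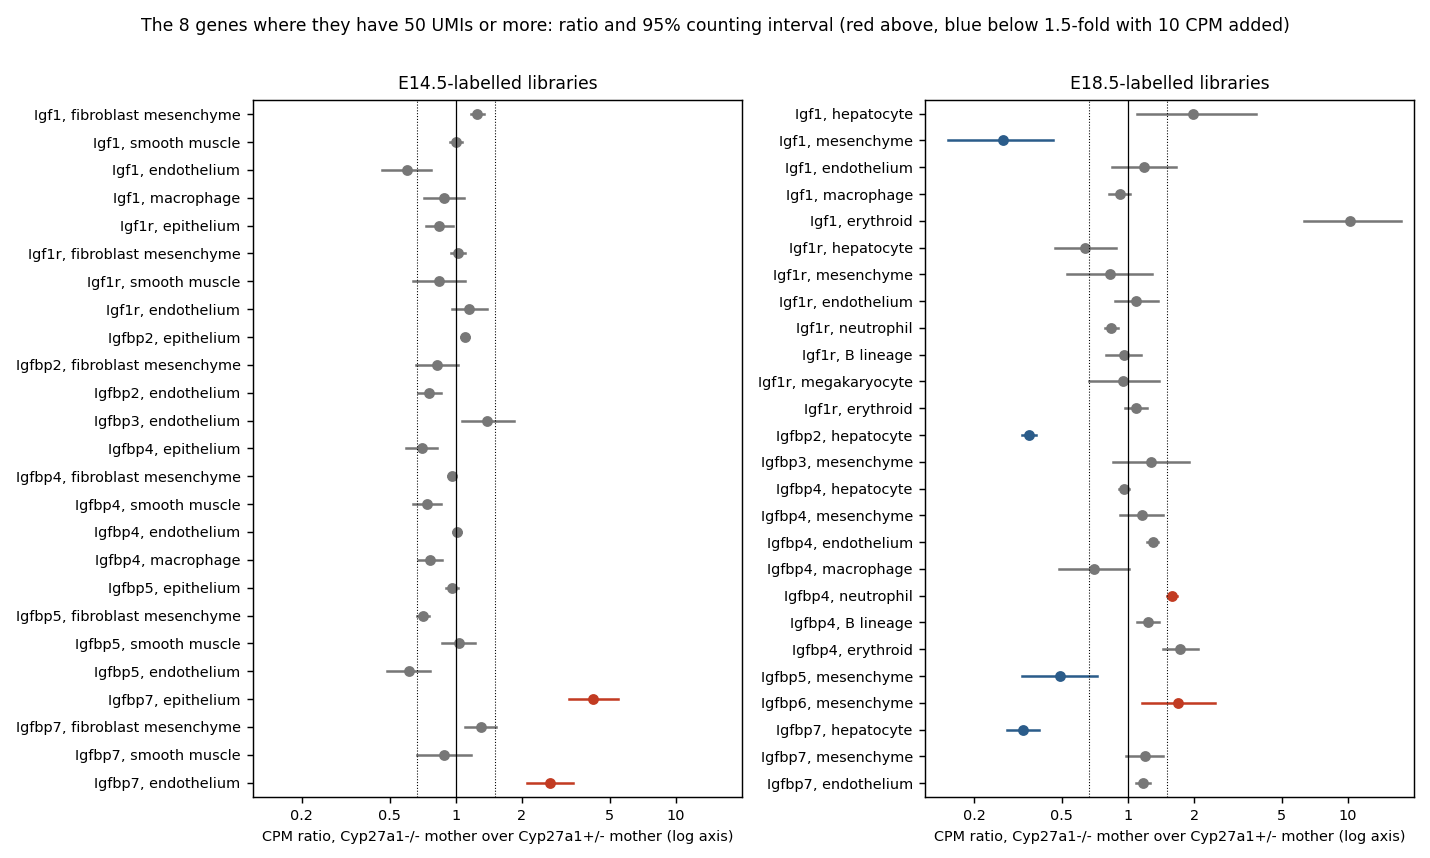
Ratio of null-mother over het-mother library (log axis) for every combination of gene and cell type with enough UMIs, E14.5 and E18.5 in separate panels, with bars for the exact 95% interval of counting error. Igfbp7 stands furthest to the higher side at E14.5 (4.21 in epithelium), and Igf1 in mesenchyme (0.271) and, in cells of the hepatocyte marker rule, Igfbp7 (0.334, inside the threshold in hepatocyte clusters) and Igfbp2 (0.355) furthest to the lower side at E18.5.

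In the fetal liver Igfbp2 was lower in hepatocytes of the null-mother library, and Igfbp7 was lower in the cells that met the hepatocyte marker rule, a difference that was inside the threshold in hepatocyte clusters. Igfbp2 had 79.0 CPM in null-mother hepatocytes and 222 CPM in het-mother hepatocytes, from 1678 UMIs in 2571 null-mother cells and 1242 UMIs in 831 het-mother cells. The ratio was 0.355 (0.330 to 0.383), or -1.38 on the log2 scale. At 2000 UMIs a cell 9.58% of null-mother hepatocytes and 24.8% of het-mother hepatocytes were positive, against 0.0957% of null-mother and 0.0852% of het-mother erythroid cells. Unthinned, the hepatocyte shares were 22.6% in the null-mother library, at a median depth of 5849 UMIs, and 35.0% in the het-mother library, at 4679 UMIs. Igfbp7 had 15.1 CPM in the null-mother and 45.1 CPM in the het-mother library (null-mother 320 UMIs, het-mother 252 UMIs), a ratio of 0.334 (0.282 to 0.395). These Igfbp7 UMIs sat in few cells, 83 of 2571 in the null-mother and 46 of 831 in the het-mother library, and 8 null-mother and 9 het-mother cells held 50% of them. Of the UMIs, 232 of 320 in the null-mother and 214 of 252 in the het-mother library lay in the 171 null-mother and 59 het-mother cells that met the rule but fell outside the hepatocyte clusters. In all cells of the hepatocyte clusters Igfbp7 was at 6.10 CPM (138 UMIs) in the null-mother and 8.0 CPM (45 UMIs) in the het-mother library, a log2 ratio of -0.16, while Igfbp2 was at 78.6 CPM in the null-mother and 223 CPM in the het-mother library. Markers of endothelium, the main Igfbp7 type, summed to 23.9 CPM in null-mother and 27.7 CPM in het-mother hepatocytes with all 10 detected in both, and their part in the Igfbp7 result was not tested.

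Both genes were among 5 of the set measured in hepatocytes, where 1.09% of all measured genes were past the threshold upwards and 0.925% downwards. The median log2 ratio was -0.30 for the set and 0.09 for all genes. Igfbp4 was at 293 CPM in the null-mother and 307 CPM in the het-mother library (ratio 0.955, 0.905 to 1.01) and did not move with them. Igfbp1, another liver carrier and no member of the set, had 767 CPM in null-mother and 1800 CPM in het-mother hepatocytes (ratio 0.426, 0.416 to 0.437). Markers of neutrophils summed to 3058 CPM in null-mother and 1599 CPM in het-mother hepatocytes, with all 9 detected in both. In hepatocytes without any neutrophil UMI (null-mother 729 cells, het-mother 303 cells) Igfbp2 (null-mother 88.6 CPM, het-mother 180 CPM) and Igfbp7 (null-mother 23.2 CPM, het-mother 44.9 CPM) were still past the threshold. Igfbp2 was lower in the null-mother library in dividing hepatocytes (null-mother 52.2 CPM, het-mother 127 CPM) and in the others (null-mother 89.6 CPM, het-mother 244 CPM). Igfbp7 was lower in the others (null-mother 10.2 CPM, het-mother 48.1 CPM), while dividing hepatocytes were close (null-mother 27.3 CPM, het-mother 32.2 CPM). Dividing cells made up 16.5% of null-mother and 10.1% of het-mother hepatocytes.

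Mesenchyme of the E18.5 libraries was small, 69 null-mother and 88 het-mother cells, and 3 of its 7 measured genes were past the threshold. There 7.4% of all measured genes passed upwards and 6.21% downwards. Igf1 had 18 UMIs (53.9 CPM) in the null-mother and 77 UMIs (199 CPM) in the het-mother library, a ratio of 0.271 (0.152 to 0.457). Igfbp5 had 39 UMIs (117 CPM) in the null-mother and 92 UMIs (238 CPM) in the het-mother library, a ratio of 0.491 (0.329 to 0.721). Igfbp6 went the other way, with 70 UMIs (210 CPM) in the null-mother and 48 UMIs (124 CPM) in the het-mother library, a ratio of 1.69 (1.15 to 2.49).

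Few cells carried these values. The null-mother UMIs of Igfbp5 came from 5 cells, 1 of which held 20, and the het-mother ones from 18 cells. Igf1 was detected in 8 null-mother and 18 het-mother cells, and Igfbp6 in 10 null-mother and 11 het-mother cells. Markers of mesothelium, the sheet of cells that covers the liver, summed to 401 CPM in null-mother and 344 CPM in het-mother mesenchyme, with all 5 detected in both. Markers of neutrophils were also present (null-mother 8388 CPM, het-mother 2564 CPM, all 9 detected in both), and their part was not tested. Without the cells that held a mesothelium UMI (null-mother 45, het-mother 64 left) Igfbp6 turned round to 44.8 CPM in the null-mother and 72.8 CPM in the het-mother library (null-mother 7 UMIs, het-mother 18 UMIs), so its direction rests on those cells. Igf1 (null-mother 5 UMIs, 32.0 CPM, het-mother 49 UMIs, 198 CPM) and Igfbp5 (null-mother 3 UMIs, 19.2 CPM, het-mother 23 UMIs, 93.0 CPM) were lower there on fewer UMIs than the minimum of 50. Igfbp3, Igfbp4, Igfbp7 and Igf1r were inside the threshold, with ratios of 0.824 to 1.27. Igf2r, the receptor that takes IGF2 into the cell for breakdown and no member of the set, had 102 CPM in the null-mother and 189 CPM in the het-mother library (ratio 0.539, 0.348 to 0.821).

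In neutrophils Igfbp4 had 156 CPM in the null-mother and 98.4 CPM in the het-mother library (null-mother 4375 UMIs, het-mother 2303 UMIs), a ratio of 1.59 (1.51 to 1.67), where 0.408% of all measured genes were past the threshold upwards and 0.439% downwards. At 2000 UMIs a cell 16.8% of null-mother and 10.2% of het-mother neutrophils were positive, against 1.85% of null-mother and 0.830% of het-mother erythroid cells. The erythroid level itself differed the same way (null-mother 9.26 CPM, het-mother 5.37 CPM). Unthinned, the neutrophil shares were 37.8% in the null-mother library, at a median depth of 7071 UMIs, and 23.7% in the het-mother library, at 4774.5 UMIs. The level followed maturity. Neutrophils with more of the early azurophil granule genes had 308 CPM of Igfbp4 in the null-mother and 239 CPM in the het-mother library, above those with more of the later granule genes (null-mother 60.0 CPM, het-mother 42.3 CPM). Early cells made up 26.6% of null-mother and 15.3% of het-mother neutrophils. With both kinds given the same weight the log2 ratio was 0.39 and no longer past the threshold. Igf1r, the other gene measured in neutrophils, had 65.4 CPM in the null-mother and 77.8 CPM in the het-mother library (ratio 0.840, 0.787 to 0.897).

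The remaining types at E18.5 held no ratio past the threshold. In endothelium all 4 measured genes were slightly higher in the null-mother library, with ratios of 1.09 for Igf1r, 1.17 for Igfbp7, 1.18 for Igf1 and 1.29 for Igfbp4, where 1.42% of all genes passed upwards and 1.68% downwards. The 2 genes measured in macrophages, Igf1 and Igfbp4, had ratios of 0.915 and 0.697 (of all genes 4.57% passed upwards and 2.13% downwards), and the 2 in the B lineage, Igf1r and Igfbp4, had ratios of 0.953 and 1.23 (0.731% upwards and 0.434% downwards). Igf1r in megakaryocytes had a ratio of 0.952 (3.02% upwards and 1.95% downwards). Monocytes (2.13% of all genes upwards, 1.08% downwards), T and NK cells (9.51% upwards, 2.45% downwards) and the erythroid cells of E14.5 (64.5% upwards, 2.62% downwards) had no measured gene of the set. Over all cells of a library Igfbp4 was the only gene of the set past the threshold, at 149 CPM in the E18.5 null-mother and 84.7 CPM in the E18.5 het-mother library. There 3.13% of all genes were past it upwards and 0.418% downwards, and over all cells of E14.5 1.08% upwards and 0.281% downwards. A library's total moves with the mix of its cells.

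Igf1 in E18.5 erythroid cells gave 153 UMIs (5.12 CPM) in the null-mother and 19 UMIs (0.50 CPM) in the het-mother library, a ratio of 10.2 (6.33 to 17.4) that stayed inside the threshold once 10 CPM were added (log2 0.53). In that type 1.58% of all genes passed upwards and 0.28% downwards, with a median log2 ratio over all genes of 0.14. The null-mother UMIs lay mostly in cells that also held macrophage RNA, and the het-mother ones did not. Erythroid cells with a macrophage marker (null-mother 414 cells, het-mother 382 cells) had 146 Igf1 UMIs (35.4 CPM) in the null-mother and 7 (2.46 CPM) in the het-mother library. Those without one (null-mother 3435 cells, het-mother 5338 cells) had 7 UMIs (0.272 CPM) in the null-mother and 12 UMIs (0.342 CPM) in the het-mother library.

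Within types the genes marked out parts. The lung epithelium was split by UMIs of Sox2, the factor of the conducting airways, and Sox9, the factor of the growing tips. Igfbp5 was an airway-side transcript, with 563 CPM in null-mother and 643 CPM in het-mother cells of the Sox2 side, above the Sox9 side (null-mother 137 CPM, het-mother 141 CPM). Igfbp2 leaned to the tips, with 755 CPM in null-mother and 619 CPM in het-mother cells of the Sox9 side, above the Sox2 side (null-mother 409 CPM, het-mother 530 CPM). Igfbp7 was higher in the null-mother library in every part: the Sox2 side (null-mother 58.4 CPM, het-mother 17.5 CPM), the Sox9 side (null-mother 27.4 CPM, het-mother 8.85 CPM) and the cells that fell on neither side (null-mother 86.4 CPM, het-mother 10.5 CPM). The Sox2 side held 94 null-mother and 59 het-mother cells, and the Sox9 side 269 null-mother and 189 het-mother cells.

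Fibroblasts were split by Lum and Dcn, matrix proteoglycans, against Wnt2 and Tcf21, genes of the distal lung mesenchyme. The small Lum Dcn side (null-mother 41 cells, het-mother 29 cells) held 512 CPM of Igf1 in the null-mother and 425 CPM in the het-mother library, above the Wnt2 Tcf21 side of 387 null-mother and 357 het-mother cells (null-mother 73.7 CPM, het-mother 86.2 CPM). It also held more Igfbp5 (null-mother 269 CPM, het-mother 594 CPM, against null-mother 57.1 CPM, het-mother 68.4 CPM) and more Igfbp7 (null-mother 203 CPM, het-mother 139 CPM, against null-mother 10.6 CPM, het-mother 4.36 CPM). Igfbp5 was lower in dividing fibroblasts, with 66.6 CPM in the null-mother and 87.3 CPM in the het-mother library, than in the others (null-mother 140 CPM, het-mother 280 CPM). Dividing cells made up 60.1% of null-mother and 70.7% of het-mother fibroblasts, a share that depends on depth.

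**Figure D4:**
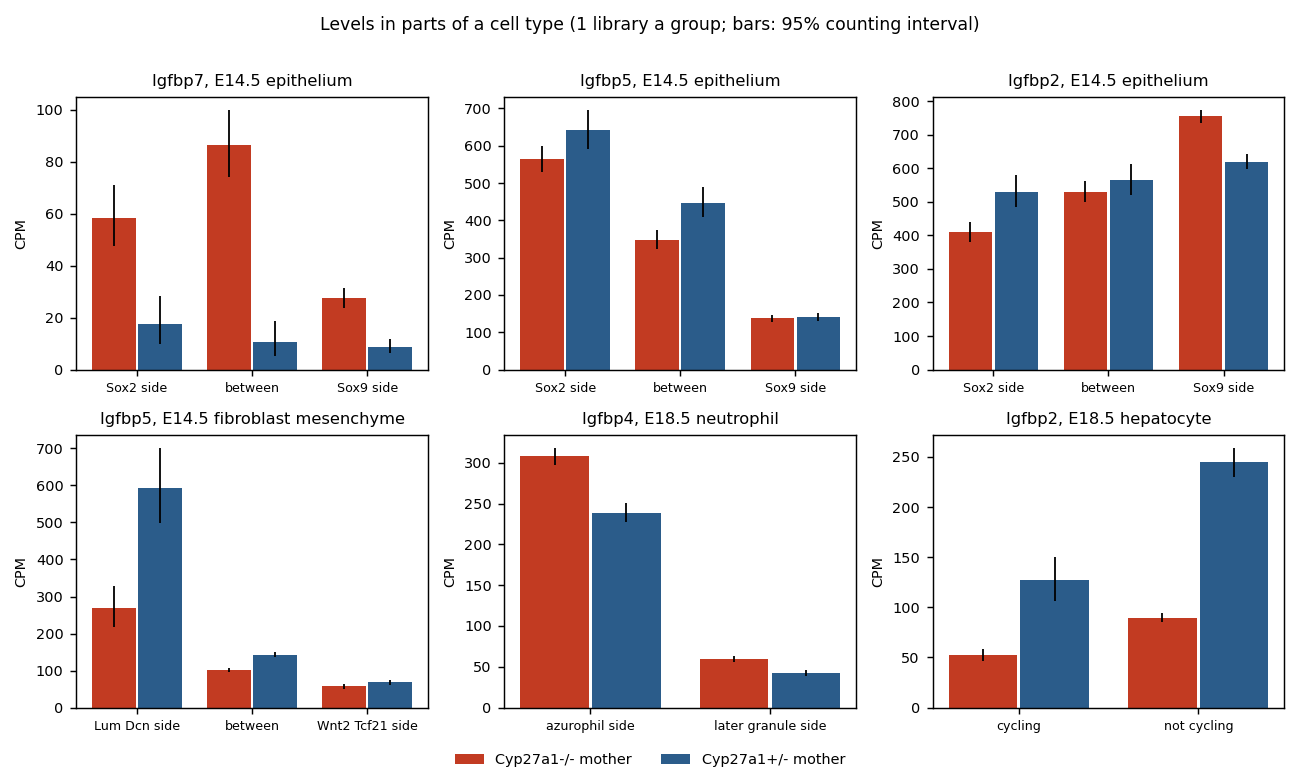
Levels in CPM within parts of a cell type, 6 panels each for a gene and a type, the Cyp27a1-/- (null) mother's library as the bar left of the Cyp27a1+/- (het) mother's, thin lines giving the exact 95% Poisson interval. Igfbp7 is higher in the null-mother library in all 3 parts of the lung epithelium, and Igfbp4 follows neutrophil maturity (early null-mother 308 CPM, het-mother 239 CPM, later null-mother 60.0 CPM, het-mother 42.3 CPM).

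A group of cells too small for the marker rule had the highest levels of several carriers. Clusters were made for each age with the 8 genes left out, so their levels played no part in it. Of 28 clusters at E14.5, a cluster of 140 cells (33 null-mother, 107 het-mother) led by Upk3b, Aldh1a2, Rspo1, Wt1 and Upk1b held 258 of the 310 Igfbp6 UMIs of the null-mother library (83.2%) and 265 of the 309 of the het-mother library (85.8%). Its Igfbp6 level was 697 CPM in null-mother and 181 CPM in het-mother cells, and the next cluster had 5.26 CPM. Summed over both libraries it was also highest for Igfbp5 (null-mother 1542 CPM, het-mother 1125 CPM), for Igfbp2 (null-mother 554 CPM, het-mother 779 CPM) and for Igfbp3, of which it had 2 null-mother UMIs (5.40 CPM) and 58 het-mother UMIs (39.7 CPM). In the null-mother library alone Igfbp2 was higher in epithelium (660 CPM) and Igfbp3 in endothelium (21.8 CPM) than in this cluster. The marker rule for mesothelium itself took 5 null-mother and 15 het-mother cells at E14.5, the null-mother ones with 150 and the het-mother ones with 48 Igfbp6 UMIs. With 33 null-mother cells in the cluster, no ratio is drawn from it.

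At E18.5, among 38 clusters, a cluster of 47 cells (19 null-mother, 28 het-mother) led by Col1a1, Col1a2, Upk3b, Dcn and Msln was the highest for Igfbp5 and Igfbp6. Igfbp5 was at 1083 CPM in null-mother and 1445 CPM in het-mother cells, and Igfbp6 at 875 CPM in null-mother and 754 CPM in het-mother cells. That cluster ranked 2 for Igfbp3 and 4 for Igfbp2 over both libraries. It held 82.6% of the null-mother and 77.9% of the het-mother library's Igfbp5 UMIs, and 53.7% of the null-mother and 66.9% of the het-mother library's Igfbp6 UMIs. Over both libraries the next clusters had 35.7 CPM of Igfbp5 and 70.4 CPM of Igfbp6. Over both libraries Igfbp4 and Igfbp7 at E14.5 were instead highest in a cluster of 108 cells led by Postn, Crabp1 and Col9a1, with Igfbp4 at 928 CPM in null-mother and 687 CPM in het-mother cells and Igfbp7 at 302 CPM in null-mother and 201 CPM in het-mother cells. In the het-mother library alone endothelium had more Igfbp4 (753 CPM).

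**Figure D5:**
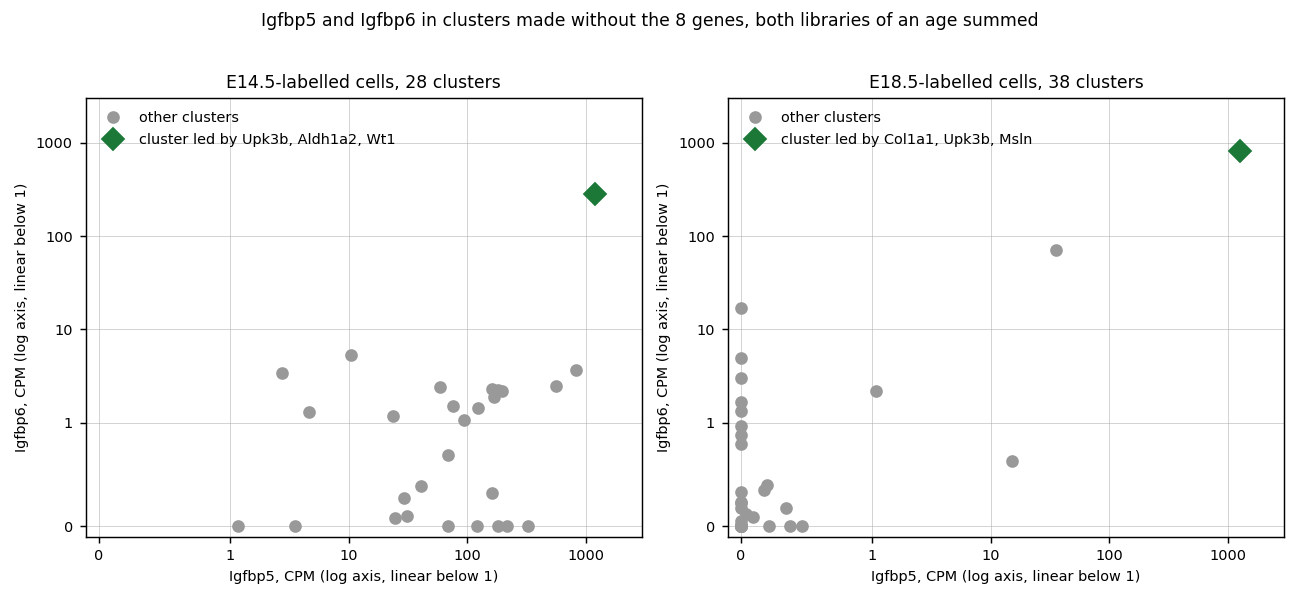
Level of Igfbp5 (x axis) and Igfbp6 (y axis) in each of 28 clusters at E14.5 and 38 at E18.5, in CPM over both libraries (log axes), with the cluster that has Upk3b among its leading genes drawn as a diamond. Clusters were made without the 8 genes. At both ages the marked cluster is the highest for Igfbp5 (1209 CPM at E14.5 and 1263 CPM at E18.5) and Igfbp6 (286 CPM at E14.5 and 815 CPM at E18.5).

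For 24 other genes of IGF signalling (ligands, receptors, adaptors, proteases and targets) the same counts were made. At E14.5 there were 55 measured combinations of gene and type, of which 2 were past 1.5-fold upwards and 1 downwards. The upward ones were in smooth muscle (1.61% of all genes upwards) and macrophages (6.29%), the downward one in endothelium (0.467% downwards). At E18.5 there were 65, of which 0 were past it upwards and 3 downwards. The downward ones were in hepatocytes (0.925% of all genes downwards), mesenchyme (6.21%) and megakaryocytes (1.95%). In E14.5 endothelium, beside the higher Igfbp7, Igf2 had 4.39 CPM in the null-mother and 14.2 CPM in the het-mother library (null-mother 40 UMIs, het-mother 69 UMIs, ratio 0.308, 0.203 to 0.461). Exons of Igf2 overlap those of a read-through gene on the same strand (Gm49394), and reads shared by 2 genes can be lost in counting, so Igf2 levels are uncertain. None of the 14 measured in E14.5 epithelium and none of the 10 in E18.5 neutrophils passed.

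Over the 35 points of a cell type in a library with at least 50 cells, the genes whose levels ran most like each gene of the set were found among 13104 genes, by Pearson's r of log2(CPM + 10). These are descriptions over points that share libraries and tissues. Igfbp5 ran with Tmem132a (r = 0.971), Fzd3 and Slc6a8, Igfbp3 with Megf6 (0.964), Nts and Ctsk, and Igfbp2 with Kif21a (0.949), Grip1 and Grb14. Igfbp6 ran with Colec10 (0.940), Gdf2 and Lrat, Igfbp7 with Steap2 (0.919) and Tgfbr3, and Igf1 with Ccdc106 (0.899), Itga9 and Samd4. Igfbp4 ran with Fmnl3 (0.854), Fchsd2 and Dusp23, and Igf1r, the most evenly spread, with Wipi1 (0.811), Kdm5b and Kdsr. Within the set the closest pair was Igfbp3 and Igfbp6 (0.828), both highest over these points in E18.5 mesenchyme, where some cells held mesothelium markers.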

How the data were processed

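The 4 libraries were made with the 10x Genomics Chromium system, per the labels' protocols, and the submitters' processing notes name Cell Ranger 3.0.0, Seurat 4.3.0 and mm10. The authors deposited 1 matrix of UMI counts, not normalized, of 31053 genes and 43351 cells, none under 500 UMIs. The names of its gene and cell files are exchanged, and the matrix sums matched the deposited totals in 43351 of 43351 cells. A cell was given a type when it held at least 3 distinct markers of it, 2 more than of any other type, which took in 52.2% to 81.9% of a library. Cells with markers of 2 types (4.81% to 11.9%) were left out, and no doublet caller was run. Counts were summed per type and library. With 1 library a group no test was made: ratios have exact conditional binomial intervals, levels exact Poisson intervals and shares Clopper-Pearson intervals. PCR and capture error are not covered. Clusters (scanpy 1.11.5, leidenalg 0.10.2) left out the 8 genes. The calculation of ratios was tested on simulated data drawn with the same counting error that the intervals assume. That checks the arithmetic and cannot cover variation between cells or libraries. Genes named beyond the set were, of the pathway list, those past 1.5-fold in a type where a gene of the set was, and the 3 with the highest r, of which 1 is not reported here. The genes and lists were chosen with earlier results of these data known. Alternatives covered scaling (TMM in edgeR 4.0.16, median of ratios), the pseudocount, the UMI minimum, cell filters, stricter gates, clusters in place of gates, and sex. Protein sequences were not used here.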

Additional observations from a re-analysis of the deposited data

Results flagged for a closer look

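By the marker rule Igfbp7 lay on opposite sides between cell types under the same contrast. Its log2 ratio of null-mother over het-mother library, with 10 CPM added, was 1.39 in E14.5 lung epithelium and 1.05 in E14.5 endothelium, but -1.14 in E18.5 hepatocytes by marker rule, where hepatocyte clusters gave -0.16 on 45 het-mother UMIs. With 1 library in each group the difference between these ratios was not tested, and age, tissue and library preparation cannot be told apart in it. In the other measured types Igfbp7 lay between -0.15 in E14.5 smooth muscle and 0.25 in E18.5 mesenchyme.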

How the results depend on the processing

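Of 589 recomputed ratios of the 8 genes, 493 lay within the counting interval of the reported one. A direction changed in 36: once for a ratio past the threshold, Igfbp6 in E18.5 mesenchyme, at -0.59 (log2) without cells that held a mesothelium UMI, and 35 times among 23 ratios inside it (up to 0.80, Igfbp5 in E14.5 endothelium). Of the 8 ratios past the threshold, 4 were past it under every alternative that gave a value. They were Igfbp7 in E14.5 epithelium (log2 1.35 to 1.97), Igfbp2 in hepatocytes (-1.76 to -0.94), and Igf1 and Igfbp5 in E18.5 mesenchyme. Igf1 there ran from -2.31 (on 5 null-mother and 49 het-mother UMIs) to -1.66, and Igfbp5 from -1.85 to -0.91. For both, clusters, male cells and a minimum of 200 UMIs gave no value. Of the 39 null-mother UMIs of Igfbp5, 1 cell held 20, and 3 were left without cells that held a mesothelium UMI. Igfbp7 in hepatocytes (-1.52 to -0.73 elsewhere) was -0.16 with clusters, on too few UMIs to be measured. Igfbp7 in E14.5 endothelium was inside it with a mean over cells (0.55). Igfbp4 in neutrophils was inside it under 4 alternatives (lowest 0.39) and Igfbp6 in mesenchyme under 3, and 9 other ratios were past it under at least 1. The number past the threshold upwards at E14.5 (2) was 1 with a mean over cells and 3 in male cells, where Igfbp3 in endothelium passed. The number downwards at E14.5 (0) was 2 with a pseudocount of 1 CPM, after the cells past the 95th percentile of depth were left out and in male cells, and 1 with a minimum of 10 UMIs and with clusters in place of gates. The number upwards at E18.5 (2) was 5 with a pseudocount of 1 CPM, 3 with a minimum of 10 UMIs, and 1 with TMM factors, median-of-ratios factors, a minimum of 200 UMIs, without those deepest cells, with clusters and in male cells. The number downwards at E18.5 (4) was 6 with a minimum of 10 UMIs, 2 with a minimum of 200 UMIs and in male cells, and 1 with clusters. No cluster was named mesenchyme or monocyte at E18.5, so these have no value there, and male cells alone leave some types under 50 cells. The cause of the other changes was not tested. Alternatives chosen after the data were seen were equal weights for parts of a type or for dividing cells, and leaving out cells with mesothelium, macrophage, neutrophil or fibroblast UMIs. Unthinned shares moved in 19 of 32 cases, and the leading type of a gene in 8 of 32. For Igf1r, Igfbp3, Igfbp5 and Igfbp6, led by mesenchyme at E18.5, the change with clusters was bound to occur, as no cluster had that name. Depth limits the genes with few UMIs, Igfbp3 and Igfbp6 in the lung and all of the set in E18.5 mesenchyme. No paired analysis was possible because each group has 1 library.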

Other observations

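Igfbp5 in lung fibroblasts, inside the threshold over all cells, differed by the sex of the cell as read from RNA. Male fibroblasts had 61.1 CPM in the null-mother and 148 CPM in the het-mother library (null-mother 296 cells, het-mother 419 cells, ratio 0.413, 0.361 to 0.471), and female fibroblasts had 102 CPM in the null-mother and 108 CPM in the het-mother library (null-mother 813 cells, het-mother 743 cells, ratio 0.942, 0.873 to 1.02). Over all fibroblasts, sexed or not, 37 of 1300 null-mother and 59 of 1449 het-mother cells held 50% of the Igfbp5 UMIs. The difference between the sexes was not tested. In epithelium Igfbp7 was higher in the null-mother library in male (null-mother 48.2 CPM, het-mother 12.6 CPM) and female cells (null-mother 39.0 CPM, het-mother 8.17 CPM). So it was in male (null-mother 84.6 CPM, het-mother 30.2 CPM) and female endothelium (null-mother 32.5 CPM, het-mother 7.05 CPM). Fibroblasts differed by sex, with male (null-mother 15.7 CPM, het-mother 19.0 CPM) and female cells (null-mother 17.2 CPM, het-mother 9.12 CPM) on opposite sides. In female smooth muscle Igfbp7 was lower in the null-mother library (null-mother 73.3 CPM, het-mother 89.2 CPM).

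Types too small for the comparison also held the carriers. Heart muscle cells at E14.5, of which the het-mother library had 82, stood at 291 CPM of Igfbp5 and 253 CPM of Igfbp2 there. Few of those cells carried the UMIs: 2 cells held 50% of the Igfbp5 ones and 3 cells 50% of the Igfbp2 ones. The 41 heart muscle cells of the null-mother library had 43.6 CPM of Igfbp5 (10 UMIs) and 39.3 CPM of Igfbp2 (9 UMIs). The few cells that met the mesothelium rule at E14.5 (null-mother 5, het-mother 15) had 3207 CPM of Igfbp5 in the null-mother and 1382 CPM in the het-mother library.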
